A study of Mus musculus with 8 samples.

Results

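Endothelial cells line the blood vessels of the pancreas, and 10 genes that mark them were followed here in 8 mouse pancreata. The genes were taken by name: Pecam1, Cdh5, Kdr, Flt1, Tek, Eng, Plvap, Esam, Vwf and Cldn5. All 10 were among the 21434 genes of the table, and all 10 were among the 12820 genes that passed the filter on low counts and were tested. The tissue came from 4 Bach2KO and 4 Bach2WT mice, untreated and 18 weeks old. Bach2KO mice were homozygous for the constitutive, whole-body allele of the strain C57BL/6N-Bach2tm1b(EUCOMM)Wtsi/leg, and Bach2WT mice were wild type animals of that strain. In either genotype, mice 1 and 2 were female and mice 3 and 4 were male. Each library is 1 mouse. The knockout lacks Bach2 in every cell, so the tissue cannot tell an effect within vessels from one that starts elsewhere, and the lung disease for which Bach2KO mice were killed at this age is part of the model.

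The endothelium of the exocrine pancreas and of the islets is fenestrated, that is, pierced by small pores closed by a diaphragm. Vascular endothelial growth factor (VEGF) from acinar and islet cells acts on endothelial receptor kinases, angiopoietins act on the Tie receptors, and cadherins and claudins seal the contacts between the cells. During inflammation, endothelial cells display adhesion molecules that hold leukocytes at the vessel wall.

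The genes fall into 4 roles. Kdr (VEGF receptor 2), Flt1 (VEGF receptor 1), Tek (the angiopoietin receptor Tie2) and Eng (endoglin, a co-receptor of bone morphogenetic proteins) are receptors. Cdh5 (VE-cadherin), Cldn5 (a claudin of tight junctions), Esam and Pecam1 (CD31) are proteins of the cell contacts. Plvap forms the diaphragm of fenestrae. Vwf encodes von Willebrand factor, which is stored in endothelial granules and binds platelets. Expression is not fully restricted to endothelium: Pecam1 is also found on leukocytes and platelets, and Vwf in megakaryocytes.

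On the GRCm39 (mm39) build of the table, Kdr (ENSMUSG00000062960) lies at chr5:76093487-76139118 and Flt1 (ENSMUSG00000029648) at chr5:147498414-147662821, both on the minus strand. Tek (ENSMUSG00000006386) lies at chr4:94627526-94763213 and Eng (ENSMUSG00000026814) at chr2:32536607-32572681. Cdh5 (ENSMUSG00000031871) lies at chr8:104828257-104871143, on the chromosome that also holds Plvap (ENSMUSG00000034845, chr8:71950409-71964396). Cldn5 (ENSMUSG00000041378) lies at chr16:18595597-18597012, Esam (ENSMUSG00000001946) at chr9:37439374-37449615, Pecam1 (ENSMUSG00000020717) at chr11:106545043-106641454 and Vwf (ENSMUSG00000001930) at chr6:125523737-125663642. In the table's coordinates, 8 of the 10 genes overlapped no other gene. Eng overlapped Fpgs and Plvap overlapped Gtpbp3, each on the opposite strand, so reads of these pairs could be shared if strand was not used in counting.

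A promoter sequence was at hand for 5 of the 10 genes, from RefSeq on GRCm38.p6. The 250 bases before the start are shown for both VEGF receptors, whose genes share a chromosome and ligands, and for Eng. They were chosen because these 3 differ in the letters AGGAAG, searched for the ETS family. The endothelial factors Erg, Ets1 and Elk3 belong to that family. Capitals mark the matches to the letters searched on both strands, which were AGGAAG for ETS, AGATAA for GATA, TGACGTCA for the cyclic AMP response element and TATAAA for the TATA box. No 2 matches overlap.
Flt1, chr5:147726012-147726261, minus strand: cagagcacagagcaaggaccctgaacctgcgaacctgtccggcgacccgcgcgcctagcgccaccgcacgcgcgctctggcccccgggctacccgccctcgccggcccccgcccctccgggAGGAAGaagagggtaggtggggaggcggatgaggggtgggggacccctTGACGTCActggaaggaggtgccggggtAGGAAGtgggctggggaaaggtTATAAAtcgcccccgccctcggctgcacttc
Kdr, chr5:75978456-75978705, minus strand: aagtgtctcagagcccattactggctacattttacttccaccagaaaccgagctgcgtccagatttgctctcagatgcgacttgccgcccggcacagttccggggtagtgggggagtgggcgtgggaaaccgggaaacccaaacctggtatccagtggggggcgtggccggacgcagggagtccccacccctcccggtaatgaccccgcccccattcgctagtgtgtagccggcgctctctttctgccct
Eng, chr2:32646345-32646594, plus strand: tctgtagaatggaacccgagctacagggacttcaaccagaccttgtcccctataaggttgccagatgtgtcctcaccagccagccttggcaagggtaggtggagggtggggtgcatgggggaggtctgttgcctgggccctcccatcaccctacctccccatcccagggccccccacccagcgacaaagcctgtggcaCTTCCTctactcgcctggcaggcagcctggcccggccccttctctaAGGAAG
Flt1 held the ETS letters beginning 129 and 53 bases before the start, the cyclic AMP letters 81 bases before it and a TATA box 31 bases before it. Eng held the ETS letters on either strand, 52 and 6 bases before the start. Kdr, Tek and Cldn5 held none of the 4 sets of letters in these 250 bases. Other forms of these motifs were not searched, so sites for these factors may still be present. Among 32851 promoters of the same length, 29.5% held the ETS letters, 9.99% the GATA letters, 1.55% the cyclic AMP letters and 12.4% the TATA letters.

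The libraries held 72299745 to 172029360 counts on genes, and the 10 endothelial genes together took 2315 to 9179 of them, while digestive enzymes made up 79.7% to 82.6% of each library. Bach2 itself had 3 to 16 counts in Bach2KO and 4 to 31 in Bach2WT libraries and did not pass the filter, so it could not check the genotype labels. Bach2KO mouse 3 stood apart from the other 7 libraries, at 101.8 on the first principal component of log2 CPM against −34.8 to 7.22. The main differences are given with and without this mouse.

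Levels of different genes were compared as FPKM (counts per kilobase of gene, on 1 scale common to all libraries). The tissue carried every one of the 10 markers in every library, with 22 counts as the lowest (Cldn5, in Bach2WT mice 1 and 3). Plvap had by far the highest level, 7.51 ± 1.73 FPKM in Bach2WT mice (mean ± SD, n = 4), ahead of Eng at 1.34 ± 0.168 FPKM and Pecam1 at 0.734 ± 0.229 FPKM. The Bach2WT ranges of these 3 genes did not overlap with each other. Pecam1 also lay above the Bach2WT range of Cdh5, which had 0.441 ± 0.0829 FPKM (n = 4). From Cdh5 downwards, every gene overlapped with its neighbour in the order: Esam followed at 0.415 ± 0.0576, Kdr at 0.342 ± 0.0776, Cldn5 at 0.234 ± 0.114, Vwf at 0.200 ± 0.0708, Tek at 0.190 ± 0.0593 and Flt1 at 0.189 ± 0.0121 FPKM (SD, n = 4). The order of Tek and Flt1 was even, with Tek the higher in 4 of 8 libraries. Flt1 varied least between Bach2WT mice and Cldn5 most relative to its mean.

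**Figure D1:**
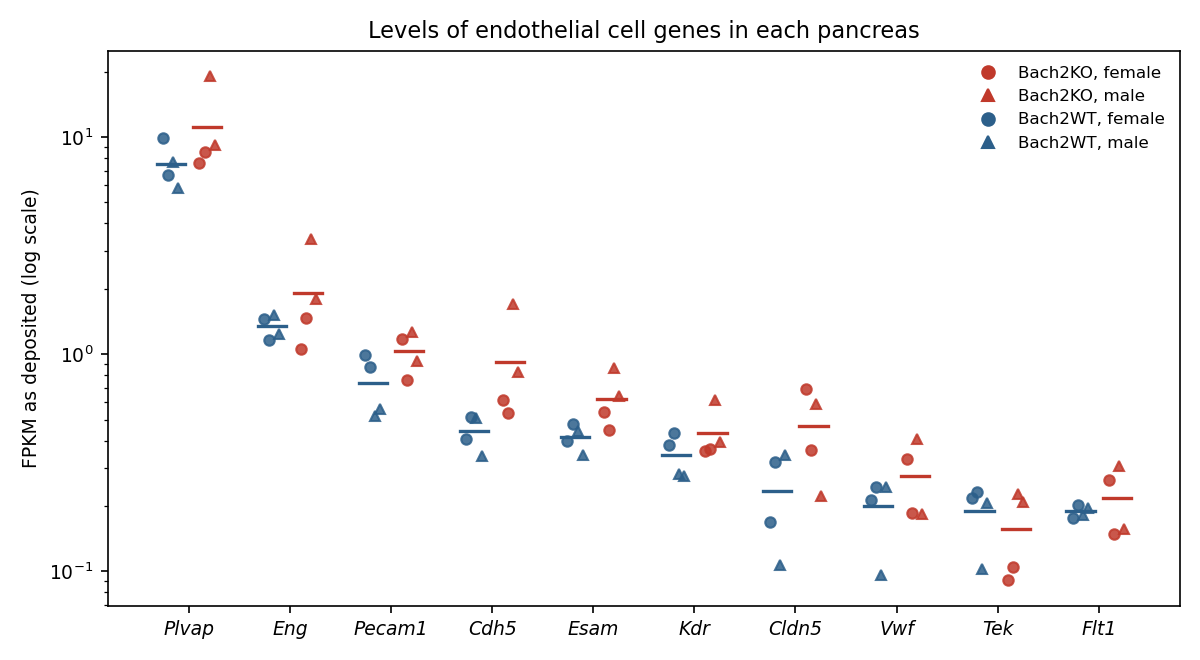
FPKM of each gene on a log scale, 1 point per mouse (circles female, triangles male), with a bar at the mean of each genotype. Plvap lies above all other genes in every mouse, and the triangle of Bach2KO mouse 3 is the top point for 8 of the 10 genes.

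To ask whether the vessel-lining genes differ between the genotypes, counts were compared with edgeR's quasi-likelihood test across all genes, with Benjamini-Hochberg adjustment. Levels in single mice are given as CPM (counts scaled to a common library size with edgeR's TMM factors), and differences as the log2 of the fold of Bach2KO over Bach2WT. None of the 10 genes passed an adjusted p-value of 0.05, a threshold met by 0.00780% of all genes tested. The fitted level was higher in Bach2KO for 9 of the 10 genes, against 54.7% of all genes, with a median log2 fold change of 0.52 against 0.05 over all genes. Cdh5 and Esam were higher at an unadjusted p-value under 0.05 (2 of 10 genes, against 3.90% of all genes), and no member was lower (3.56% of all genes, 7.46% in either direction). DESeq2 also put 0 of the 10 past the adjusted threshold (0.352% of all genes). It put 3 (Cdh5, Plvap and Esam) past the unadjusted one, each higher (3.57% of all genes). The edgeR count of 2 was 4 without Bach2KO mouse 1 (3.08% of all genes) or Bach2KO mouse 2 (3.45%). It was 1 without Bach2KO mouse 3 (3.44%) or Bach2WT mouse 3 (3.59%). In bulk tissue, a change in the number of cells of a type and a change in RNA per cell cannot be told apart.

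Among the proteins of cell contacts, Cdh5 showed the largest difference. Its level was 2.72, 2.32, 7.25 and 3.56 CPM in Bach2KO mice 1 to 4 and 1.75, 2.19, 2.14 and 1.44 CPM in Bach2WT mice 1 to 4. Every Bach2KO mouse lay above every Bach2WT mouse, which held for 1 of the 10 genes and, in that direction, for 2.57% of all genes tested (1.92% in the other direction, 4.49% in either). A second gene was without overlap when Bach2KO mouse 2 or 4 or Bach2WT mouse 1 or 2 was left out, so the count was then 2. With fewer mice, non-overlap is easier for every gene: without Bach2KO mouse 3 it held for 4.46% of all genes, higher in Bach2KO. The share was not determined for the other omissions, so the count of 2 cannot be set against it. For Cdh5 the log2 fold change was 1.07 with a standard error of 0.33, a fold of 2.09 with a 95% interval of 1.28 to 3.43 (unadjusted p = 0.00636, adjusted p = 0.531, edgeR). Without Bach2KO mouse 3 it was 0.59 with a standard error of 0.24 (adjusted p = 0.578, edgeR). Leaving out the highest Bach2KO mouse could not create overlap between the genotypes.

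Esam, an adhesion molecule of endothelial tight junctions, had 1.64, 1.33, 2.51 and 1.88 CPM in Bach2KO mice 1 to 4 against 1.17, 1.39, 1.28 and 0.993 CPM in Bach2WT mice 1 to 4. Only Bach2KO mouse 2 fell below the highest Bach2WT mouse. The fold was 1.52 (95% interval 1.02 to 2.26, adjusted p = 0.663, edgeR). The log2 fold change of 0.60 was 0.40 without Bach2KO mouse 3, and the unadjusted p of 0.0416 was 0.0545 with sex as a covariate and 0.0652 with the replicate number as a block. Pecam1, which holds neighbouring endothelial cells together and lets leukocytes pass, had 7.72, 4.88, 8.03 and 5.94 CPM in Bach2KO mice against 6.28, 5.49, 3.27 and 3.53 CPM in Bach2WT mice. The low Bach2WT values were those of both males, and the genotypes overlapped. Its fold was 1.43 (95% interval 0.995 to 2.06, adjusted p = 0.670, edgeR), and its log2 fold change of 0.52 was 0.40 without Bach2KO mouse 3. Cldn5, the main claudin of endothelial tight junctions, was the gene with the fewest counts and the widest interval. Its level was 1.03, 0.531, 0.845 and 0.321 CPM in Bach2KO mice and 0.244, 0.457, 0.153 and 0.489 CPM in Bach2WT mice, so that Bach2KO mouse 4 lay inside the range of the controls. The fold of 2.04 had a 95% interval of 0.944 to 4.4 (adjusted p = 0.699, edgeR), and the log2 fold change of 1.03 was 0.88 without Bach2KO mouse 3.

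Of the receptors, Kdr, which carries most of the VEGF signal in endothelium, had 3.42, 3.41, 5.64 and 3.63 CPM in Bach2KO mice and 3.52, 3.97, 2.57 and 2.49 CPM in Bach2WT mice. Each female control lay above at least 2 of the Bach2KO mice. The fold was 1.28 (95% interval 0.90 to 1.82, adjusted p = 0.794, edgeR), and the log2 fold change of 0.36 was 0.13 without Bach2KO mouse 3. Flt1, which binds VEGF tightly and also exists as a secreted form, had 3.76, 2.08, 4.17 and 2.18 CPM in Bach2KO mice against 2.43, 2.77, 2.48 and 2.68 CPM in Bach2WT mice. The controls lay between the high pair (mice 1 and 3) and the low pair (mice 2 and 4) of Bach2KO mice. The fold was 1.18 (95% interval 0.806 to 1.72, adjusted p = 0.908). The log2 fold change of 0.23 was 0.11 without Bach2KO mouse 1, 0.02 without mouse 3, 0.38 without mouse 2 and 0.37 without mouse 4 of that genotype.

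Eng had 4.53, 6.12, 13.9 and 7.41 CPM in Bach2KO mice and 6.02, 4.80, 6.20 and 5.05 CPM in Bach2WT mice. Its fold of 1.44 (95% interval 0.944 to 2.21, adjusted p = 0.728, edgeR) depended most on 1 mouse. The log2 fold change of 0.53 was 0.11 without Bach2KO mouse 3, and 0.47 to 0.73 on leaving out any other mouse. Tek was the gene with a fitted level below that of the controls. It had 0.451, 0.507, 1.08 and 1.01 CPM in Bach2KO mice and 1.05, 1.11, 0.487 and 0.979 CPM in Bach2WT mice, with a low pair of females in one genotype and a low male in the other. The fold was 0.839 (95% interval 0.461 to 1.53, adjusted p = 0.940). The log2 fold change of −0.25 was −0.06 without Bach2KO mouse 1, −0.11 without Bach2KO mouse 2 and −0.14 without Bach2WT mouse 2. It was −0.48, −0.42 and −0.46 without Bach2KO mouse 3, Bach2KO mouse 4 and Bach2WT mouse 3.

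Plvap, the diaphragm protein, had 15.9, 17.6, 38.6 and 18.6 CPM in Bach2KO mice against 20.02, 13.4, 15.4 and 11.7 CPM in Bach2WT mice. Bach2KO mouse 3 had 1.93 times the level of the next library, and the other 3 Bach2KO mice lay inside the range of the controls. The fold was 1.5 (95% interval 0.996 to 2.25, adjusted p = 0.670, edgeR). Its log2 fold change of 0.58 was 0.18 without Bach2KO mouse 3, and 0.47 to 0.74 on leaving out any other mouse. Vwf had 5.55, 3.07, 6.62 and 3.01 CPM in Bach2KO mice and 3.51, 4.0, 1.55 and 3.96 CPM in Bach2WT mice, a fold of 1.4 (95% interval 0.861 to 2.29, adjusted p = 0.795). The log2 fold change of 0.49 was 0.23 without Bach2KO mouse 3 and 0.25 without Bach2WT mouse 3. Platelet genes, which could accompany Vwf, summed to 0.686 to 1.30 CPM in Bach2KO and 0.488 to 0.849 CPM in Bach2WT mice, with 2 of the 10 genes of that list tested, and their part in the Vwf values was not tested.

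**Figure D2:**
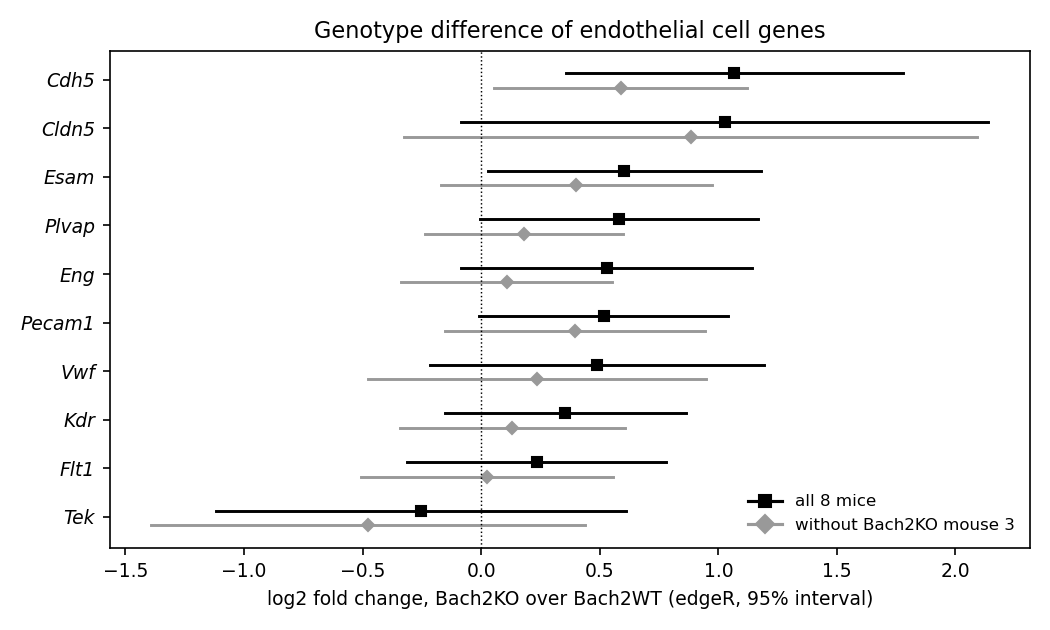
Log2 fold change of Bach2KO over Bach2WT with its 95% interval, from all 8 mice (black squares) and without Bach2KO mouse 3 (grey diamonds). The interval of Cdh5 lies above 0 in both fits, and without that mouse the values of Eng and Plvap drop from 0.53 and 0.58 to 0.11 and 0.18.

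Without Bach2KO mouse 3, the median log2 fold change of the 10 genes was 0.21 against 0.04 over all genes, 9 of 10 were still above 0, and Cdh5 was the gene with an unadjusted p-value under 0.05 (1 of 10, against 3.44% of all genes), with none lower (4.62%). Cdh5 was again the gene without overlap (1 of 10, against 4.46% of all genes), which leaving out its highest Bach2KO mouse could not change. The sum of the 10 genes was 88.6 CPM in this mouse, 41.8 to 47.6 CPM in the other 3 Bach2KO mice and 33.3 to 46.0 CPM in the 4 Bach2WT mice. The same library had the highest sum for 7 of 19 lists of cell type and vascular genes, the 10 endothelial genes included. Its other highest sums were those of further endothelial genes, VEGF and angiopoietin genes, and Eng partners. Endothelial transcription factors, haemostasis genes, and pericyte and smooth muscle genes completed the 7. For pericytes and smooth muscle this library had 18.0 CPM against 8.52 to 13.4 CPM in the other libraries. For leukocytes it had 15.1 CPM, between the 12.3 and 17.6 CPM of Bach2KO mice 1 and 2. Islet genes ranged from 184 to 2317 CPM, with 2021 CPM in this mouse and the highest sum in Bach2WT mouse 4. How far the cell composition of the tissue piece set the endothelial values was not tested.

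The leukocyte list, of which 9 of 11 genes were tested, bears on Pecam1. It summed to 12.3 to 17.6 CPM in Bach2KO and 6.78 to 15.3 CPM in Bach2WT mice. Bach2WT mouse 1 had the highest leukocyte sum (15.3 CPM) and the highest Pecam1 level of the controls, whereas Bach2KO mouse 2 had the highest leukocyte sum (17.6 CPM) and the lowest Pecam1 level of its genotype. Its part in the Pecam1 values was not tested. Of the 9 tested leukocyte genes, 6 lay above 0 and 3 below, with log2 fold changes from −1.22 to 1.51. Lyz2 was the leukocyte gene with an unadjusted p-value under 0.05 (log2 fold change 1.15, adjusted p = 0.523, edgeR). S100a8, a neutrophil gene that did not pass the filter, had 2 to 40 counts in Bach2KO libraries and 0 in each Bach2WT library, where a count of 0 allows up to 3 counts.

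The genotype difference was then looked at within each sex, with 2 mice against 2, a split added after the data were seen. In males all 10 genes were higher in Bach2KO, with a median log2 fold change of 0.89 against 0.01 over all genes. Of these, 6 had an unadjusted p-value under 0.05 (4.04% of all genes in males), 0 were lower (1.99%) and 0 passed the adjusted threshold (0.0301% of all genes, edgeR). The male genotypes did not overlap for 7 of the 10, with Bach2KO higher, as for 19.6% of all genes. Bach2KO mouse 3 is 1 of the 2 Bach2KO males. Without it, in a fit of sex and genotype to the other 7 mice that takes the remaining male to vary like the others, 9 of 10 genes were above 0 in males with a median of 0.45. Pecam1 (0.79) and Cdh5 (0.97) then had an unadjusted p-value under 0.05 (2.26% of all genes), 0 were lower (1.05%), 0 passed the adjusted threshold (0.00730% of all genes), and Flt1 turned to −0.26. In females 6 of 10 were higher, with a median of 0.12 against 0.04 over all genes. None of the 10 was higher at an unadjusted p-value under 0.05 (3.65% of all genes in females), and Tek was lower (3.26%, with 0 members and 0.00747% of all genes past the adjusted threshold). The female genotypes did not overlap for Cdh5 and Cldn5, with Bach2KO higher (21.2% of all genes), nor for Kdr and Tek, with Bach2KO lower (18.6% of all genes). For Cdh5 the log2 fold change was 1.58 in males and 0.34 in females. Pecam1 had 1.04 and 0.08, Plvap 1.07 and −0.02, Eng 0.91 and −0.04, and Kdr 0.87 and −0.15, in males and females respectively. Tek turned from 0.52 in males to −1.20 in females. Cldn5 (0.87 and 1.13) and Flt1 (0.29 and 0.15) differed least between the sexes.

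The difference between the sexes was tested as an interaction of sex and genotype in edgeR. None of the 10 genes passed an adjusted p-value of 0.05, as for 0 of 12820 genes in all, with 6.14% at an unadjusted p-value under 0.05. Unadjusted p-values under 0.05 were found for 5 of the 10: Pecam1, Cdh5, Kdr, Tek and Plvap, for which the male difference exceeded the female one by 0.94, 1.22, 1.00, 1.70 and 1.08 on the log2 scale. DESeq2 put 6 of the 10 past the unadjusted threshold (4.94% of all genes) and 0 past the adjusted one. The count of 5 was 0 without Bach2KO mouse 3 (3.82% of all genes). It was 1 without Bach2KO mouse 2 (5.74%) or Bach2WT mouse 4 (5.09%). It was 2 without Bach2KO mouse 1 (3.83%) or Bach2WT mouse 3 (6.82%), and 3 without Bach2WT mouse 1 (8.46%) or 2 (5.15%). Without Bach2KO mouse 4 it was 6, where the share over all genes was also at its highest (9.80%). Between males and females over both genotypes, no member had an unadjusted p-value under 0.05 (5.29% of all genes) or an adjusted one (0.0312% of all genes). The lowest was that of Eng, with 5.37 CPM in females and 8.14 CPM in males (unadjusted p = 0.0586).

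**Figure D3:**
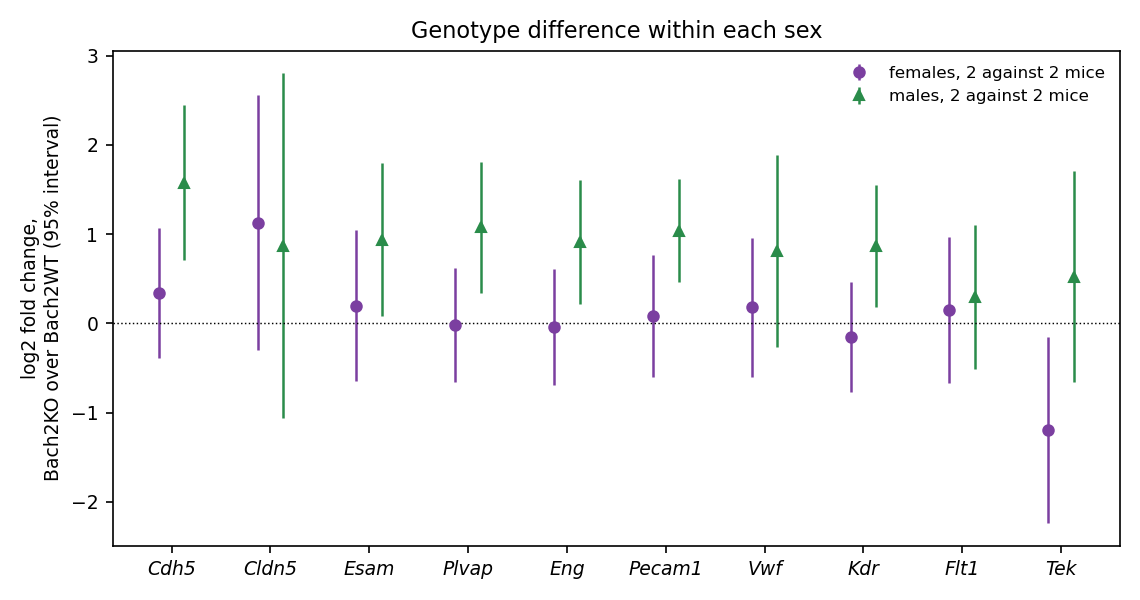
Log2 fold change of Bach2KO over Bach2WT with its 95% interval in females (circles) and males (triangles), 2 against 2 mice each. The male value is above the female one for all genes but Cldn5, and the Tek values lie on opposite sides of 0.

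Whether the genes vary together from mouse to mouse was described with correlations of log2 CPM over the 8 libraries, which share the scaling of each library. Of the 45 pairs of genes, 44 had a Pearson r above 0, with a median of 0.55. Esam and Cdh5, both of the cell contacts, were the closest pair (r = 0.98), and stayed at 0.99 without Bach2KO mouse 3 and at 0.97 after the genotype means were removed. Plvap and Eng followed with r = 0.92 (0.64 without that mouse), and Cldn5 and Vwf with 0.89 (0.86 without it). Without Bach2KO mouse 3 the median of the pairs fell to 0.22 and 30 of 45 were above 0, so much of the shared variation lay in this mouse. Against the mean of the other 9 genes, r was highest for Kdr (0.91) and lowest for Tek (0.25). Without that mouse it was 0.78 for Kdr, 0.91 for Pecam1, 0.02 for Flt1, −0.06 for Tek and −0.16 for Eng.

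**Figure D4:**
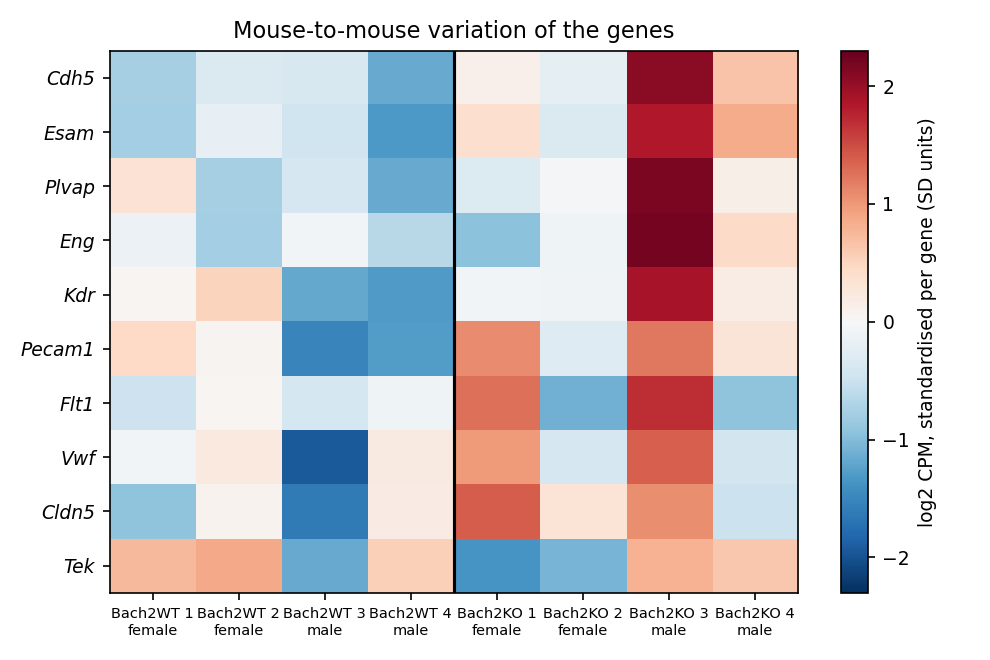
Log2 CPM of each gene, standardised over the 8 mice (colour, in SD units), with Bach2WT libraries on the left and Bach2KO libraries on the right. The column of Bach2KO mouse 3 is high in all 10 genes. Bach2WT mouse 3 is low for Vwf, Cldn5, Pecam1, Kdr and Tek, and Tek is low in both Bach2KO females.

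Among the 12810 other genes tested, the 10 whose log2 CPM followed the mean of the standardised endothelial genes most closely over the 8 mice were C130074G19Rik (r = 0.963), Lrwd1, Pbxip1, Syt7, Enpp5, Sparcl1, Grb2, Tnfaip3, Kat6b and Adcy9 (r = 0.919). They are a description over 8 libraries, and none of them belongs to the lists of vascular genes. Without Bach2KO mouse 3 their r lay between 0.667 for Tnfaip3 and 0.920 for Grb2. The median r was 0.44 for the 97 tested genes of 9 further vascular lists, which also hold genes of other cells, and 0.01 for all genes.

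Ratios within a library do not depend on its total. Relative to Cdh5, the mean FPKM ratio was lower in Bach2KO for 8 of the other 9 genes, which follows from Cdh5 having the largest fold, and for all 9 ratios the genotypes overlapped. The ratio of Tek to Cdh5 moved most, at 0.182 ± 0.0536 in Bach2KO and 0.450 ± 0.176 in Bach2WT mice (SD, n = 4 each). Esam to Cdh5 was the steadiest ratio in Bach2WT mice, at 0.948 ± 0.0585, and was 0.751 ± 0.168 in Bach2KO mice. The receptors Flt1 and Kdr stood at a ratio of 0.509 ± 0.156 in Bach2KO and 0.573 ± 0.129 in Bach2WT mice.

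The wider vascular programme was followed with 9 further lists, 105 of whose 109 genes were in the table and 97 tested. These lists also hold genes that other cells make, such as Vegfa of acinar and islet cells, so they do not describe endothelium alone. None of the 97 passed an adjusted p-value of 0.05 in edgeR (lowest 0.352). At an unadjusted p-value under 0.05, 9 were higher (3.90% of all genes) and 2 lower (3.56%), and the latter count was 1 without Bach2KO mouse 2 or 4 or Bach2WT mouse 1. The median log2 fold change was 0.31 and 77.3% were above 0, against 0.05 and 54.7% of all genes.

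Among ligands and other receptors of the VEGF and angiopoietin families, 1 of 12 (Nrp1) lay above and 2 (Vegfb and Pgf) lay below the controls at an unadjusted p-value under 0.05. Nrp1, a co-receptor that binds VEGF beside Kdr, had 5.97 ± 1.38 CPM in Bach2KO and 3.33 ± 0.437 CPM in Bach2WT mice (SD, n = 4 each). Its values did not overlap, and its log2 fold change of 0.84 (standard error 0.20) had an adjusted p of 0.352 in edgeR. Vegfb, a ligand of Flt1 and the most abundant gene of this list at 5.68 FPKM, had 7.89 ± 0.724 CPM against 10.7 ± 1.00 CPM (SD, n = 4 each) without overlap, a log2 fold change of −0.44 (adjusted p = 0.560, edgeR). Pgf, the other ligand specific to Flt1, had a log2 fold change of −1.09 (adjusted p = 0.624). Vegfa, the ligand of Kdr, had 4.75 ± 1.42 against 3.55 ± 1.15 CPM (SD, n = 4 each). The Tek ligands Angpt1 and Angpt2 were scarce, with means of 0.0706 to 0.248 CPM, and Tie1, the partner of Tek, had a log2 fold change of 0.03.

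Of the Eng partners in the pathway of bone morphogenetic proteins and TGF-beta, 0 of 11 genes tested passed in either direction (median log2 fold change 0.16). Acvrl1, the receptor that Eng assists and the list's most abundant gene, had 3.13 ± 1.87 against 2.59 ± 0.234 CPM (SD, n = 4 each). Junction partners were nearest to even, with 6 of 12 genes above 0 and a median of 0.06. Ctnnb1, the beta-catenin that Cdh5 binds, had a log2 fold change of −0.19, and Nectin2 was higher without overlap (log2 fold change 0.28, adjusted p = 0.741, edgeR). Of 22 other endothelial surface and signalling genes, 2 were higher at an unadjusted p-value under 0.05: Mcam, a partner of VEGF receptor signalling (log2 fold change 1.01, no overlap), and Gpihbp1, which carries lipoprotein lipase to the capillary surface (0.76). Sox18, a factor of endothelial development and the most abundant gene of that list, had −0.14.

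Among endothelial transcription factors, 2 of 15 genes tested were higher at an unadjusted p-value under 0.05. Klf4, a flow-responsive factor, had 1.18 ± 0.387 against 0.493 ± 0.109 CPM (SD, n = 4 each) without overlap. The log2 fold change came to 1.25 (adjusted p = 0.513, edgeR), and Elk3, of the ETS family, had 0.89 (adjusted p = 0.641). Klf2, the related flow-responsive factor and the most abundant of the list at 1.44 FPKM, had 0.72, and Erg and Ets1 had 0.52 and 0.23. Of 11 arterial and venous genes, 1 was higher, the endothelial Notch receptor Notch4 (1.04), while the venous receptor Ephb4, the most abundant, had 0.22.

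Leukocyte adhesion molecules were few and scarce, with 4 of 7 genes tested. Icam1, which binds leukocyte integrins, had 0.861 ± 0.299 CPM in Bach2KO and 0.323 ± 0.149 CPM in Bach2WT mice (SD, n = 4 each), without overlap. Its log2 fold change was 1.41 (adjusted p = 0.531, edgeR). Vcam1 had 0.94 and Selp −0.41. Glycam1 and Madcam1, addressins of lymphoid venules, did not pass the filter. Glycam1 had 725 counts in Bach2KO mouse 1, 0 in the other 3 Bach2KO mice and 0 to 6 in Bach2WT mice, where a count of 0 allows up to 3 counts. Ccl21a, a chemokine of lymphatic vessels and lymphoid tissue, was likewise highest in that library, with 750 counts against 18 to 157 in the other 7, and its copies are near-identical, so its level is uncertain. It was 1 of 7 tested lymphatic genes higher at an unadjusted p-value under 0.05 (log2 fold change 2.13, adjusted p = 0.523), and all 7 were above 0 (median 0.70). Lymphoid tissue in this sample was not tested.

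Of 6 tested haemostasis genes, Thbs1, a matrix protein that restrains vessel growth, was higher, with 3.19 ± 2.09 against 0.886 ± 0.220 CPM (SD, n = 4 each). The fit put it 1.85 higher on the log2 scale (adjusted p = 0.352, edgeR). In DESeq2 its adjusted p was 0.0140, where 0.352% of all genes passed, and without the filter on low counts 0.0112 in edgeR, where 0.341% passed. Procr, the receptor of protein C and the most abundant of that list, had 0.14.

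**Figure D5:**
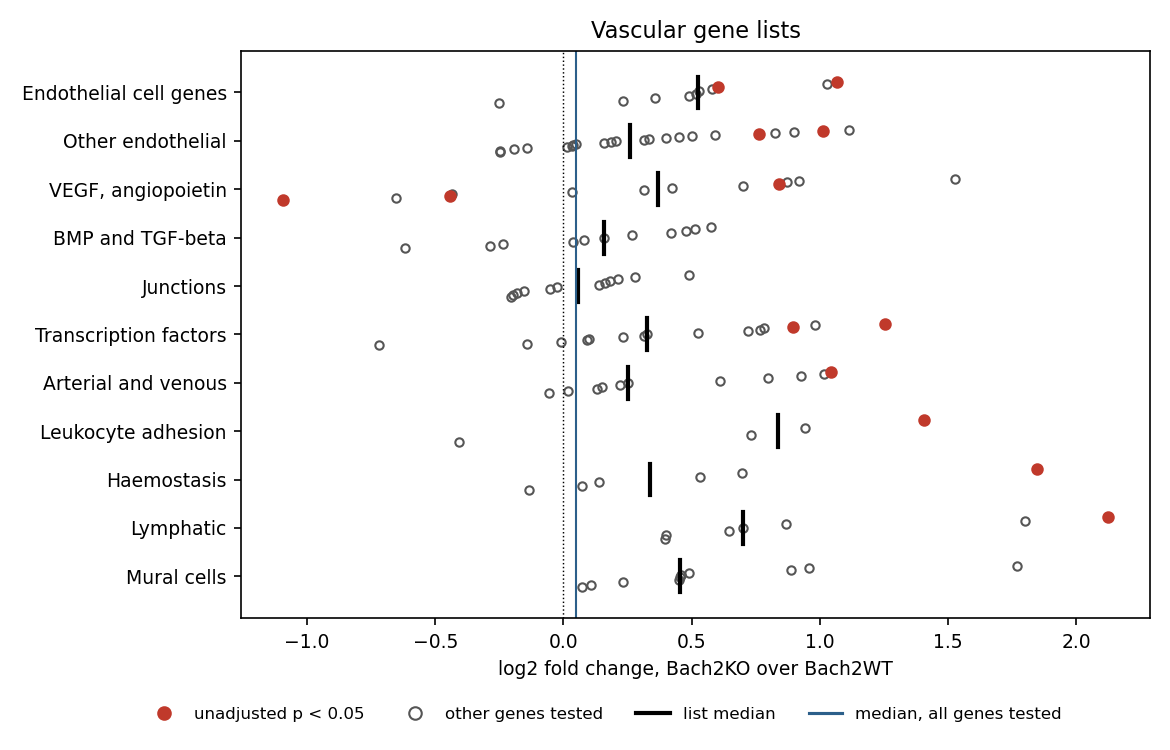
Log2 fold change of each tested gene of the endothelial cell genes and of 10 lists of vascular genes, with filled points for an unadjusted p-value under 0.05, black bars at the list medians and a blue line at the median of all genes tested (0.05). The list medians lie from 0.06 for junction partners to 0.84 for leukocyte adhesion molecules.

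The other cell types of the tissue gave these values beside the endothelial ones. Pericyte and smooth muscle genes had a median log2 fold change of 0.46 with all 10 tested genes above 0, and Kcnj8 was higher without overlap (0.96). Fibroblast genes had 0.08 (6 tested), duct genes 0.05 (4 tested, Krt7 higher at an unadjusted p-value under 0.05), islet genes 0.30 (7 tested, Gcg higher) and red blood cell genes 0.21 (5 tested). Adipocyte genes had −1.35 (4 tested, Plin1 lower without overlap). Platelet genes had 0.94 over 2 tested genes and leukocyte genes 0.36 over 9. Digestive enzymes had −0.33 over 29 genes, with 10 lower (3.56% of all genes) and 1 higher (Amy2a2, 3.90%) at an unadjusted p-value under 0.05. As a share of all counts they made up 79.7% to 81.6% in Bach2KO and 81.2% to 82.6% in Bach2WT libraries. The TMM factors that scale the fold changes were 1.05 to 1.18 in Bach2KO and 0.826 to 1.10 in Bach2WT libraries. How far scaling set the −0.33 was not tested. The part of these cell types in the endothelial differences was not tested.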

How the data were processed

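Counts per gene for each library were used as deposited by the authors, without normalization. The normalized signal of the deposited table is the count divided by 1 size factor per library, and the deposited FPKM values are that signal divided by gene length and by 1 common constant, which held on the values. The submitters' notes name fastp, HISAT2 2.2.1, featureCounts 2.0.6 and mm39, with no settings. The group means, fold changes and p-values of the authors' own comparison were not used. Among counts of 1 to 12, 75.3% were even, as if both mates of a pair were counted. The labels describe directional and non-directional libraries without saying which was made.

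The comparison of genotypes used the quasi-likelihood test of edgeR 4.0.16 on all 8 mice (TMM, filterByExpr, no covariate, two-sided). Log2 CPM used a prior count of 2. Standard errors are the log2 fold change divided by the root of F. With 1 library per mouse, p-values measure the spread between mice. Totals of 72299745 to 172029360 counts set the counting error. Intervals are 95%. Alternatives were DESeq2 1.42.0, a filter of at least 10 counts in every mouse or none, scaling by RLE or after removal of digestive enzymes, a term for sex, a block for the replicate number, counts divided by 2, a loess correction for gene length (span 0.3), and leaving out each mouse.

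The members and lists were chosen with earlier results of these data known. Named were all members, genes of the lists with an unadjusted p-value under 0.05 or without overlap (digestive enzymes as counts), the most abundant gene of each vascular list and the 10 genes closest to the members. Further genes were named after their values were seen.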

Additional observations from a re-analysis of the deposited data

Results flagged for a closer look

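Of 20 groups of 4 mice examined (10 genes in each genotype), 2 held a library far from the other 3, a gap that chance gives in about 1 of 20 groups. Kdr was 5.64 CPM in Bach2KO mouse 3, with the other Bach2KO mice at 3.41 to 3.63 CPM. Plvap was 38.6 CPM in the same mouse, with the others at 15.9 to 18.6 CPM.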

How the results depend on the processing

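No endothelial cell gene passed an adjusted p of 0.05 under any alternative. The number higher at an unadjusted p under 0.05 was 2 (3.90% of all genes), and was 1 with RLE factors (3.47%). It was 4 without the filter (4.65%), with halved counts (4.34%) or with the length correction (3.95%). With at least 10 counts in every mouse it was 5 (4.60%). Leaving out a mouse gave 1 to 4 (3.08% to 5.55%), females gave 0 (3.65%) and males 6 (4.04%). In females 1 was lower. The number higher without overlap was 1 (2.57% of all genes), and was 1 to 2 on leaving out a mouse. The share over all genes was 4.46% without Bach2KO mouse 3 and was not determined for the other omissions. It was 2 in females (21.2%) and 7 in males (19.6%). The median log2 fold change of 0.52 was 0.12 in females and 0.89 in males, and reversed signs were Kdr −0.15, Eng −0.040 and Plvap −0.016 in females, Tek 0.52 in males, and Tek 0.45 and Flt1 −0.26 in males without Bach2KO mouse 3. The causes were not tested. Of the further vascular genes, 3 passed the adjusted threshold without the filter (Glycam1, Thbs1, Ccl21a) and 1 with DESeq2 (Thbs1). Their unadjusted number of 9 higher was 5 in females and 16 in males (2 without Bach2KO mouse 3), and of 2 lower 1 to 2 on leaving out a mouse (1 in males without Bach2KO mouse 3). The median interaction of 0.94 was 0.48 to 1.22 on leaving out a mouse, and lowest without Bach2KO mouse 3. The median pair correlation was 0.22 without Bach2KO mouse 3. Over all genes, DESeq2 gave 52 higher and 23 lower genes and the fit without the filter 55 and 18, against 1 and 0. With the replicate number as a block, 2 members were higher at an unadjusted p under 0.05 (3.77% of all genes). These were Cdh5 (log2 fold change 0.95) and Pecam1 (0.54), while Esam was not among them. Same-numbered mice shared a number and a sex, so this block also holds sex. Their deviations correlated at 0.21, −0.03, −0.04 and −0.05. Counts were 22 to 167 for Cldn5 and 42 to 194 for Tek, which limits what could be detected for them.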
